A study of Mus musculus with 6 samples.

Results

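The genes described here are 9 genes of the primitive endoderm, measured by RNA sequencing in mouse embryonic stem (ES) cells that lack Mpp8 and Tasor. They are 6 transcription factor genes (Gata4, Gata6, Sox7, Sox17, Foxa2 and Foxq1) and 3 genes of receptors or their adaptor (Pdgfra, Cubn and Dab2). They were taken by symbol, and all 9 were found, each once, among 57180 genes. Libraries came from C57BL/6 ES cells, with 3 from Mpp8/Tasor double knockout (dKO) cells and 3 from wild-type (WT) cells. No treatment is given in the labels for either genotype. The sources used here do not say which part of each gene was removed, how many clones were used, or whether replicates were separate cultures, so p-values measure only the spread between these libraries. MPP8 and TASOR are subunits of the human silencing hub (HUSH), which keeps retroelements and some genes silent in chromatin marked by H3K9 methylation.

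The primitive endoderm is the extraembryonic layer that forms beside the epiblast in the blastocyst and gives rise to visceral and parietal endoderm. In mouse embryos, FGF4 from epiblast precursors acts through FGFR1 and FGFR2 and the ERK kinases to favour GATA6 over NANOG, and SOX17, GATA4 and SOX7 follow GATA6. ES cell cultures are epiblast-like and hold few cells that express these factors. In bulk libraries, fewer cells of a type and less RNA per cell cannot be told apart.

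Library totals ran from 18881691 to 20128334 estimated counts in dKO cells and from 18384774 to 24910498 in WT cells. Levels are CPM, estimated counts relative to library sizes scaled by TMM. A library with no count allows up to 3 counts, or 0.145 to 0.158 CPM in dKO and 0.122 to 0.165 CPM in WT libraries, for counting error only. Mphosph8, the gene of MPP8, was at 0.138 ± 0.081 CPM in dKO and 128 ± 16 CPM in WT cells, and Tasor was at 9.85 ± 1.04 CPM in dKO and 162 ± 33.7 CPM in WT cells (SD, n = 3 each). The ES cell factor Pou5f1 was at 685 ± 53.1 CPM in dKO and 665 ± 133 CPM in WT cells. WT replicate 2 lay apart from the other libraries on the second principal component and had the highest mitochondrial share of counts (2.29%, against 1.34% to 1.63% in the other 5 libraries).

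All 9 genes were scarce in both genotypes. Summed over the 9, the dKO libraries held 11.1, 10.6 and 10.4 CPM and the WT libraries 8.87, 11.4 and 9.77 CPM, so the genotypes overlapped. The make-up of that sum differed. The 6 transcription factor genes together had 2.514, 2.014 and 2.102 CPM in dKO libraries, against 3.80, 5.06 and 5.10 CPM in WT libraries. Pdgfra, Cubn and Dab2 together had 8.56, 8.62 and 8.30 CPM in dKO libraries, against 5.07, 6.36 and 4.66 CPM in WT libraries. Neither CPM sum overlapped between genotypes, where 49.2% of all tested genes, taken singly, were free of overlap. The transcription factor genes gave 20.7% of the 633 member counts in dKO and 46.2% of the 619 in WT cells. Without Gata4 and Sox7, which are on chromosome 14, the other 4 factor genes gave 13.1% in dKO and 18.3% in WT cells. Pdgfra and Cubn gave 53.9% in dKO and 23.1% in WT cells, while Dab2 taken singly overlapped between genotypes. CPM and counts are not divided by length, so long genes such as Cubn (11262 bases) weigh more here. On the authors' TPM scale, which is per length, the summed values of the 6 transcription factor genes overlapped between genotypes. Those of Pdgfra, Cubn and Dab2 did not.

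**Figure D1:**
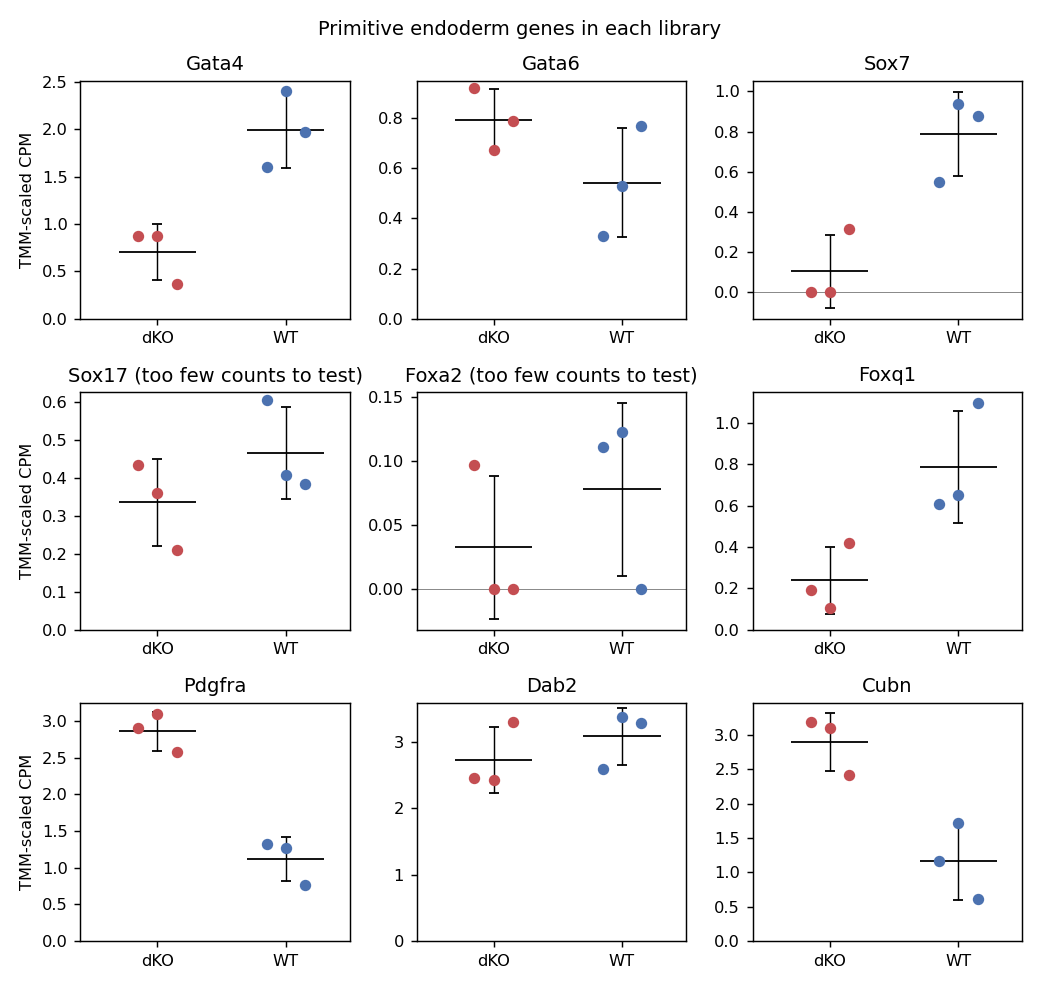
TMM-scaled CPM of the 9 genes in each library, dKO in red and WT in blue, with the mean (line) and SD (bar) of 3 libraries. Axes differ between genes; Pdgfra and Cubn were higher, and Gata4, Sox7 and Foxq1 lower, in all 3 dKO libraries than in all 3 WT libraries.

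Levels between genes were compared per length, on the authors' TPM scale. In dKO cells Dab2 was highest at 1.74 ± 0.0929 TPM, followed by Gata6 (0.773 ± 0.599 TPM), Pdgfra (0.76 ± 0.0436 TPM), Sox17 (0.707 ± 0.376 TPM), Gata4 (0.55 ± 0.311 TPM) and Cubn (0.413 ± 0.098 TPM). Foxq1, Sox7 and Foxa2 came last at 0.0767 ± 0.0404, 0.0467 ± 0.0808 and 0.0367 ± 0.0635 TPM (SD, n = 3). In that order only the steps from Dab2 to Gata6 and from Cubn to Foxq1 exceeded the larger of the neighbours' SDs. In WT cells Dab2 (1.23 ± 0.361 TPM) and Gata4 (1.16 ± 0.48 TPM) lay within their spread of each other. Sox17 (0.73 ± 0.255 TPM), Gata6 (0.403 ± 0.153 TPM), Sox7 (0.387 ± 0.142 TPM) and Pdgfra (0.263 ± 0.11 TPM) followed. Foxq1 (0.247 ± 0.0551 TPM), Foxa2 (0.17 ± 0.151 TPM) and Cubn (0.163 ± 0.101 TPM) were lowest in WT cells. Only the step from Sox17 to Gata6 exceeded the larger of the neighbours' SDs there. Against these, Pou5f1 stood between 951 and 994 TPM in dKO and between 894 and 989 TPM in WT libraries.

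Of the 9 genes, 7 had enough counts for a test and Sox17 and Foxa2 did not. Among the 7 tested, edgeR called 2 higher and 3 lower in dKO at an adjusted p under 0.05, where the background over 15714 tested genes was 16.4% higher and 17.9% lower (34.3% called in all). All 3 genes called lower reached the low-count filter in 3 WT libraries, but Sox7 and Foxq1 in 0 and Gata4 in 2 dKO libraries. Gata6 reached it in 3 dKO libraries and 1 WT library. These genes passed through the genotype where they were higher, so the filter bears on these counts. Of the 7 tested members, the 5 called were free of overlap between genotypes and Gata6 and Dab2 were not, where 49.2% of all tested genes were. Calls and overlap rest on the same values, so the one adds no support to the other.

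**Figure D2:**
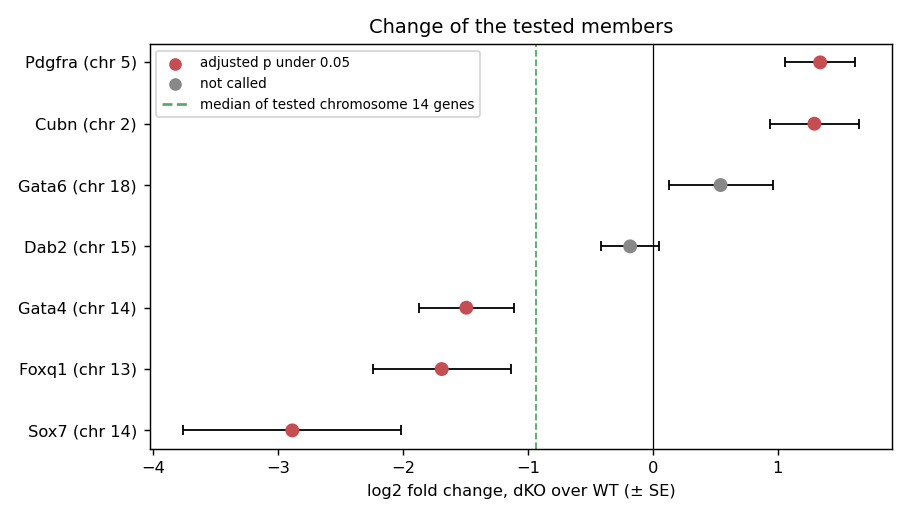
Log2 fold change, dKO over WT, of the 7 tested genes with its SE, red where edgeR's adjusted p was under 0.05 and grey where not. Pdgfra and Cubn lie right of 0 and Gata4, Foxq1 and Sox7 left of it; the dashed line is the median of tested chromosome 14 genes, -0.94.

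The GATA factors bind GATA motifs and start the primitive endoderm programme. Gata4 (ENSMUSG00000021944, chromosome 14), a factor of later primitive endoderm and its derivatives, had 0.870, 0.878 and 0.368 CPM in dKO replicates 1, 2 and 3, against 1.60, 2.41 and 1.98 CPM in WT replicates 1, 2 and 3. Every dKO library was below every WT library, with dKO replicate 3 the lowest. Gata4 was 2.81-fold lower in dKO (log2 fold change -1.49, SE 0.38, edgeR quasi-likelihood adjusted p = 0.0143). The call was lost on the TPM scale, where dKO replicate 1 (0.82 TPM) was above WT replicate 3 (0.79 TPM) and limma gave an adjusted p of 0.18.

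Gata6 (ENSMUSG00000005836, chromosome 18), the factor that specifies primitive endoderm, did not follow Gata4. It had 0.919, 0.671 and 0.788 CPM in dKO libraries, against 0.331, 0.530 and 0.768 CPM in WT libraries, and the genotypes overlapped. It was not called, with a log2 fold change of 0.54 (SE 0.416; adjusted p = 0.347 by edgeR's quasi-likelihood test). Gata6 rested on 19, 13 and 15 counts in dKO and 6, 13 and 14 in WT libraries. The count ratio of Gata4 to Gata6 was 0.947, 1.31 and 0.467 in dKO libraries, against 4.83, 4.54 and 2.57 in WT libraries, without overlap. Gata4 alone was already free of overlap in CPM, and the share of all gene pairs free of overlap was not computed. Gata4 lies on chromosome 14, whose tested genes had a median log2 fold change of -0.94. The difference between the fold changes of Gata4 and Gata6 was not tested.

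SOX7 and SOX17 are closely related SOXF factors, with SOX17 needed to keep the primitive endoderm fate. Sox7 (ENSMUSG00000063060, chromosome 14) had 0, 0 and 6 counts in dKO libraries, against 10, 23 and 16 in WT libraries. All of its dKO counts came from replicate 3, at 0.315 CPM, below the lowest WT library at 0.551 CPM. The fit gave a log2 fold change of -2.89 (SE 0.872; adjusted p = 0.0303 by edgeR's quasi-likelihood test), and the summed counts, 6 in dKO and 49 in WT cells, gave a 7.93-fold lower level in dKO (95% exact interval 3.39 to 22.6, counting error only). The Sox7 call was lost in 4 of 6 fits that left out a library, with edgeR adjusted p = 0.0602 without WT replicate 1, 0.0581 without WT replicate 3, 0.0996 without dKO replicate 1 and 0.0935 without dKO replicate 2.

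Sox17 (ENSMUSG00000025902, chromosome 1) was too low to test, with 9, 7 and 4 counts in dKO and 11, 10 and 7 in WT libraries. Its CPM of 0.435, 0.361 and 0.210 in dKO libraries overlapped those of 0.606, 0.408 and 0.384 in WT libraries. The ratio of summed counts, dKO over WT, was 0.736 with a 95% exact interval of 0.393 to 1.35, for counting error only. On the same scale Sox7 was at 0.126 (0.0442 to 0.295). The difference between the fold changes of Sox7 and Sox17 was not tested. Sox18, the third SOXF gene and an endothelial factor, had 1.58 ± 0.326 CPM in dKO and 1.57 ± 0.538 CPM in WT cells (SD, n = 3 each).

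The forkhead genes were near the limit of detection. Foxa2 (ENSMUSG00000037025, chromosome 2), a factor of visceral and definitive endoderm, had 2, 0 and 0 counts in dKO and 2, 3 and 0 in WT libraries, and no difference was detectable at this depth. Foxq1 (ENSMUSG00000038415, chromosome 13) had 0.193, 0.103 and 0.420 CPM in dKO libraries, against 0.606, 0.653 and 1.10 CPM in WT libraries. Its genotypes did not overlap, and it was 3.23-fold lower in dKO (log2 fold change -1.69, SE 0.553, edgeR quasi-likelihood adjusted p = 0.0412). Foxq1 lies off chromosome 14. It rested on 14 counts in dKO and 47 in WT cells, and DESeq2 gave an adjusted p of 0.055. Without WT replicate 1, WT replicate 3, dKO replicate 1 or dKO replicate 2 the edgeR adjusted p was 0.0688, 0.126, 0.142 and 0.149. In the authors' deposited table its adjusted p was 0.0909.

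Gata4 and Sox7 lie close together on chromosome 14, with 5 tested genes between them, and most tested genes of that chromosome were lower in dKO. Of 525 tested chromosome 14 genes, 370 were lower, 32 higher and 123 not called, with a median log2 fold change of -0.94, where the median of all tested genes was -0.02. The targeted genes Mphosph8 and Tasor are on the same chromosome. Whether the lower Gata4 and Sox7 belong to that chromosome-wide difference or to the missing subunits cannot be told apart in this design. Among the 10 tested genes nearest to Gata4, 5 on each side, all 10 were lower, with log2 fold changes from -1.69 (Fam167a) to -0.47 (Tdh, a threonine dehydrogenase gene highly expressed in mouse ES cells) and a median of -1.05. The 10 nearest to Sox7 include the 5 tested genes between it and Gata4, which are also among the 10 of Gata4. Among the 10 of Sox7, 9 were lower and 1, Msra, was not called, and the median was -0.98. Mir124a-1hg, a small RNA host gene close to Sox7, had the lowest value of these at -2.83.

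**Figure D3:**
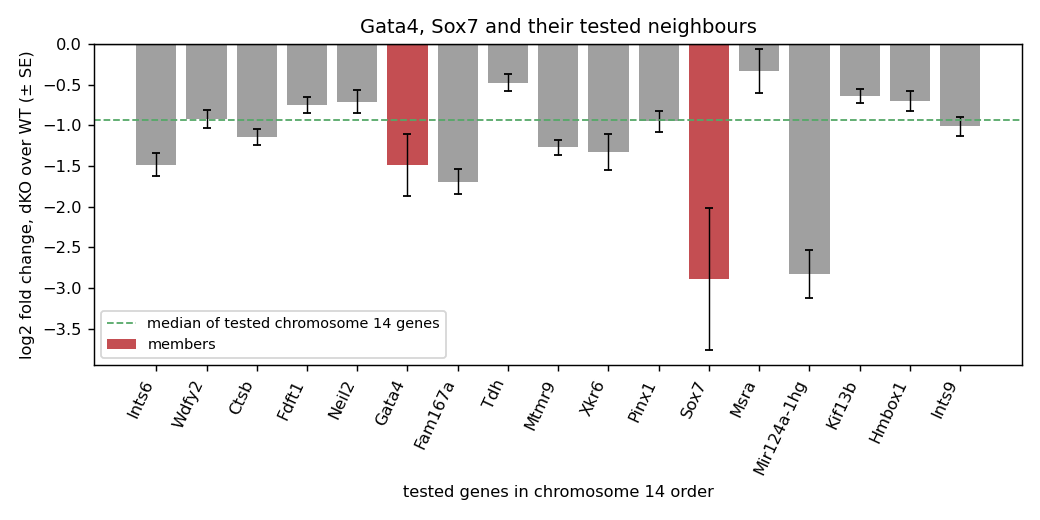
Log2 fold change, dKO over WT, with its SE for Gata4 and Sox7 (red) and the tested genes around them (grey), in chromosome order. All values are below 0; Gata4 lies within the range of its neighbours, and Sox7 (-2.89) and Mir124a-1hg (-2.83) are the lowest.

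Set against that background, Gata4 was 0.56 below the chromosome 14 median on the log2 scale, and 15.2% of the chromosome's tested genes had a lower log2 fold change. Sox7 was 1.95 below it, and 3.24% had a lower one. The 4 transcription factor genes on other chromosomes (Gata6, Sox17, Foxa2 and Foxq1) summed to 1.64, 1.14 and 1.42 CPM in dKO libraries, against 1.65, 1.71 and 2.25 CPM in WT libraries. The highest dKO library and the lowest WT library differed by less than the floor of 1 library there.

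The receptor genes Pdgfra and Cubn were higher in dKO, unlike Gata4, Sox7 and Foxq1. Pdgfra (ENSMUSG00000029231, chromosome 5), the receptor for PDGF-A and PDGF-C and an early surface marker of primitive endoderm, had 2.90, 3.10 and 2.58 CPM in dKO libraries, against 1.323, 1.265 and 0.768 CPM in WT libraries. The lowest dKO library was above the highest WT library. Pdgfra was 2.53-fold higher (log2 fold change 1.34, SE 0.281, edgeR quasi-likelihood adjusted p = 0.0056) and was called in all 13 other settings tried (adjusted p 0.000871 to 0.0367). Cubn (ENSMUSG00000026726, chromosome 2), encoding the endocytic receptor cubilin of visceral endoderm, kidney and gut, had 3.19, 3.10 and 2.42 CPM in dKO libraries, against 1.16, 1.71 and 0.604 CPM in WT libraries. It was 2.45-fold higher (log2 fold change 1.30, SE 0.355, edgeR quasi-likelihood adjusted p = 0.0197). The Cubn call was lost without WT replicate 1 (edgeR adjusted p = 0.0644), dKO replicate 1 (0.0731) or dKO replicate 2 (0.0633), and on the TPM scale (limma adjusted p = 0.119).

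Dab2 (ENSMUSG00000022150, chromosome 15), whose product is the endocytic adaptor that couples cubilin and megalin to clathrin, had the highest mean TPM of the 9 in both genotypes, in WT cells within its spread of Gata4. On the CPM scale it had 2.47, 2.43 and 3.31 CPM in dKO libraries, against 2.59, 3.39 and 3.29 CPM in WT libraries. The genotypes overlapped, and the log2 fold change of -0.18 (SE 0.231; adjusted p = 0.588 by edgeR's quasi-likelihood test) was not called. On the TPM scale the direction turned, with 1.64, 1.82 and 1.77 TPM in dKO libraries against 1.04, 1.65 and 1.01 TPM in WT libraries (log2 fold change 0.50 on the log2(TPM + 0.1) scale, limma adjusted p = 0.31). Neither scale gave a call.

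The scales differ in the length behind each TPM. TPM divides a gene's estimated counts by the length of the transcripts they are assigned to, so counts and TPM together imply a length, set here so that the median gene of a library has its tabled length. For Dab2 the implied length was 2973, 2720 and 3120 bases in dKO libraries, against 4457, 4353 and 5022 bases in WT libraries, without overlap, where the tabled length was 4663 bases. For Gata6 it was 938 bases in dKO replicate 2 and 1020 bases in WT replicate 1, and 3629 to 3698 bases in the other 4 libraries, so the 1.46 TPM of dKO replicate 2 rested on 13 counts. For Pdgfra it was 7857, 7802 and 5805 bases in dKO libraries, against 7890, 7665 and 8453 bases in WT libraries. Implied lengths were worked out for the members only, so the share of all genes free of overlap in this measure is not known. These lengths are estimates from 6 to 83 counts a library, no interval for them can be had from the table, and isoform levels were not analysed here.

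**Figure D4:**
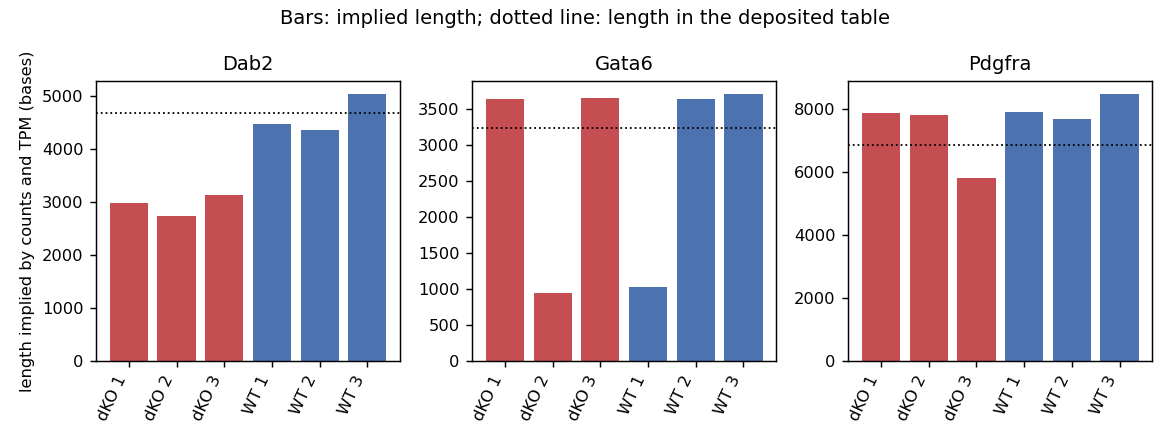
Length in bases implied by the deposited counts and TPM for Dab2, Gata6 and Pdgfra in each library, dKO in red and WT in blue; the dotted line is the length in the deposited table. The 3 dKO bars of Dab2 (2720 to 3120 bases) are below its 3 WT bars (4353 to 5022 bases), and Gata6 is short in 1 library of each genotype.

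Start regions were available from RefSeq (GRCm38.p6, not the build of the counts) for 4 of the 9 genes, in 7 windows. The 250 bases before the start are shown for both genes called higher, Pdgfra and Cubn, and for the 2 starts of Dab2, whose implied length differed. Capitals mark GATAA, on either strand, a core of the GATA motif; ACAAT (SOX) and TGTTTAC (forkhead) were searched on both strands as well. The windows are Pdgfra on the plus strand at chr5:75152001-75152250, Cubn on the minus strand at chr2:13491877-13492126, and Dab2 on the plus strand at chr15:6299539-6299788 for the upstream start and chr15:6386498-6386747 for the downstream start.
Pdgfra: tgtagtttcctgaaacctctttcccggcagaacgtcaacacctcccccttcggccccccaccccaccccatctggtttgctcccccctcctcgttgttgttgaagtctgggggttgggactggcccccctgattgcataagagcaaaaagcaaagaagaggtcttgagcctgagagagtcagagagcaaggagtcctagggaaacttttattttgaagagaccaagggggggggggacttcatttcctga
Cubn: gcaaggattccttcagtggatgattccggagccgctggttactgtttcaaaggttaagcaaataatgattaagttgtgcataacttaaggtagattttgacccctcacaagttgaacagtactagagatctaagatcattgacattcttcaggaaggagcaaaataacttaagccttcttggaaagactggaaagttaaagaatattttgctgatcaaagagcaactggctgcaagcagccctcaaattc
Dab2 upstream start: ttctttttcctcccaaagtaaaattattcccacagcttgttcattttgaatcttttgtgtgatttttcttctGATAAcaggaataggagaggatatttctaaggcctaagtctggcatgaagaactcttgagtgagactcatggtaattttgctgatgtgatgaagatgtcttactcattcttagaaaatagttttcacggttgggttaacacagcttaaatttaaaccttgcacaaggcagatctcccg
Dab2 downstream start: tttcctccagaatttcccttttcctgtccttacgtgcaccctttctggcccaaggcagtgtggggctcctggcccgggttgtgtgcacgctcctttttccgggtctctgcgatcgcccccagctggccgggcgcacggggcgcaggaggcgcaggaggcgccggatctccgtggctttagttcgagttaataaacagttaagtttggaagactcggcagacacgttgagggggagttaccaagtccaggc
Among the windows shown, the upstream Dab2 window held 1 GATAA and no other match was found. Of the 3 Foxa2 windows, not shown since Foxa2 had almost no counts, 1 also held a GATAA. Among 32851 windows of the same length, 22.6% held GATAA, 27.7% held ACAAT and 3.17% held TGTTTAC, on either strand. The G and C share was 54.4% for Pdgfra, 39.6% for Cubn, and 36.8% and 60.0% for the upstream and downstream Dab2 windows.

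The 3 tested ligand genes of the PDGF receptors were lower in dKO, where Pdgfra was higher. Pdgfc was at 21.4 ± 0.668 CPM in dKO and 46.8 ± 4.81 CPM in WT cells (log2 fold change -1.13, SE 0.111), and Pdgfb and Pdgfa fell by 0.70 and 0.30 on the log2 scale. All 3 were called by edgeR. Of the 6 tested genes in this list, 3 were lower, 1 (Pdgfra) was higher and 2 (Pdgfrb and Pdgfrl) were not called. Over all tested genes, 17.9% were lower and 16.4% higher. Pdgfrl, a receptor-like gene, had a log2 fold change of 0.32. Pdgfrb, the sister receptor, had 2.24 ± 0.356 CPM in dKO and 1.83 ± 0.16 CPM in WT cells and was not called. Pdgfd, a ligand of the sister receptor, was too low to test at 0, 5 and 2 counts in dKO and 7, 12 and 13 in WT libraries.

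Of the 16 genes listed for cubilin and megalin endocytosis, 15 were tested, with a median log2 fold change of -0.18. Cubn was higher, 6 fell below WT and 8 were not called, where 17.9% of all tested genes were lower. Lrp2, encoding megalin, was at 59.4 ± 4.96 CPM in dKO and 47.2 ± 5.49 CPM in WT cells (log2 fold change 0.33, edgeR adjusted p = 0.0544), which was not called. Amn, encoding the cubilin partner amnionless, was at 1.70 ± 0.226 and 1.56 ± 0.813 CPM in dKO and WT cells. The megalin chaperone gene Lrpap1 fell by 0.63 on the log2 scale, the clathrin adaptor genes Ap2a2 and Ap2b1 by 0.70 and 0.54, and the endosomal chloride exchanger gene Clcn5 by 1.03. Cblif, encoding the vitamin B12 carrier that cubilin takes up, had no counts.

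Among relatives of the members, 10 of 12 were tested. Of these, 3 were lower, 0 higher and 7 not called, where 17.9% of all tested genes were lower. The trophoblast factors Gata3 and Gata2 were at 0.554 ± 0.305 and 1.15 ± 0.244 CPM in dKO, against 4.84 ± 1.16 and 2.37 ± 0.511 CPM in WT cells (log2 fold changes -3.10 and -1.03). Foxa3, an endoderm forkhead factor, fell by 0.64 on the log2 scale. Gata1, a blood cell factor, was at 3.51 ± 0.292 CPM in dKO and 1.87 ± 0.941 CPM in WT cells and was not called (edgeR adjusted p = 0.0667). Kit, Dab1, Sox18, Pdgfrb, Lrp2 and Amn were not called either, and Gata5 (1, 1 and 7 counts in dKO, 0, 3 and 0 in WT) and Foxa1 (8, 6 and 9 counts in dKO, 15, 6 and 2 in WT) were too low to test.

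In the wider endoderm list of 38 other genes, 27 were tested, with a median log2 fold change of -0.34. Of these, 10 were lower, 3 higher and 14 not called, where 17.9% of all tested genes were lower and 16.4% higher. The lower genes with the smallest p were the laminin genes Lama1 (50.1 ± 1.72 CPM in dKO, 225 ± 12.1 CPM in WT) and Lamb1, the claudin gene Cldn6 (19.1 ± 0.835 CPM in dKO, 56.7 ± 5.75 CPM in WT) and the matrix gene Sparc, all of which ES cells also express. The 3 higher genes were the Nodal antagonist gene Lefty1 (log2 fold change 2.26), the retinol transporter gene Stra6 (2.19) and Snai1 (0.99). Stra6 reached the low-count filter in 3 dKO libraries and 1 WT library. Genes of visceral endoderm differed in level. The apolipoprotein and transport genes Apoe, Trf, Apob and Rbp4 were detected in all 6 libraries, and of these Trf was lower in dKO (log2 fold change -0.93) and the others were not called. Ttr, Apoa4 and Cer1 had no counts in any library, Afp had 1, 2 and 2 counts in dKO and 0, 1 and 0 in WT libraries, and Apoa1 had 0, 6 and 4 in dKO and 2, 5 and 8 in WT libraries. Hnf4a, a nuclear receptor gene of visceral endoderm and liver, had 15, 11 and 6 counts in dKO and 2, 0 and 0 in WT libraries, without overlap, and was not tested.

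Upstream of these genes, the FGF and ERK list had 9 lower, 2 higher and 12 not called among 23 tested genes (median -0.20). Over all tested genes, 17.9% were lower and 16.4% higher. Fgf4, the epiblast ligand, was at 195 ± 6.31 CPM in dKO and 287 ± 9.26 CPM in WT cells (log2 fold change -0.56, SE 0.0777). Of the ERK-induced feedback and target genes, Spry2 (on chromosome 14), Etv4, Dusp6 and Dusp4 fell by 1.02, 0.72, 0.45 and 0.70 on the log2 scale, while Etv5 (log2 fold change 0.25) and Spry4 (-0.15) were not called. The receptor gene Fgfr1 rose by 0.25 on the log2 scale, and Fgfr2, at 46.2 ± 4.5 CPM in dKO and 39.5 ± 1.97 CPM in WT cells, was not called. Among 12 epiblast factors, 3 were lower (Tfcp2l1, Fgf4 and Tdgf1), 0 higher and 9 not called, and Nanog was at 201 ± 6.91 CPM in dKO and 184 ± 1.3 CPM in WT cells.

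Several members also mark other cell types. Pdgfra is abundant in fibroblasts, and 6 of 11 tested fibroblast and feeder markers were higher and 0 lower, where 16.4% of all tested genes were higher. Of these 6, Prrx1, Dcn and Postn passed the low-count filter only through dKO libraries. Summed over all 12 of these markers, dKO libraries held 74.9 to 76.0 CPM and WT libraries 43.7 to 53.1 CPM. Prrx1, a mesenchymal factor, was at 2.51 ± 0.0831 CPM in dKO and 0.137 ± 0.0728 CPM in WT cells, Acta2, Fbn1 and Col1a2 rose by 1.18, 1.20 and 1.02 on the log2 scale, and Col1a1 was at 13.8 ± 0.757 CPM in dKO and 15.2 ± 2.62 CPM in WT cells. The fibroblast gene Lum had 3, 4 and 0 counts in dKO and 1, 1 and 0 in WT libraries. Their part in the Pdgfra difference was not tested.

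SOX7 and SOX17 also act in endothelium and definitive endoderm. The 9 endothelial markers summed to 153 to 178 CPM in dKO and 201 to 234 CPM in WT libraries, mostly from Pecam1 and Tek, which ES cells express, while Cdh5 had at most 5 counts in a library and Emcn none. Of 6 tested endothelial genes, Kdr and Cldn5 rose and Pecam1 fell, where 16.4% of all tested genes were higher and 17.9% lower. The 12 genes of definitive endoderm and streak summed to 36.3 to 39.6 CPM in dKO and 23.43 to 24.97 CPM in WT libraries, 1 of 6 tested was higher (Otx2, log2 fold change 2.25, on chromosome 14) and 0 were lower, and Gsc and Cer1 had at most 9 counts and 0. Without Otx2, left out after the values were seen, the other 11 genes summed to 17.3 to 18.7 CPM in dKO and 18.9 to 20.4 CPM in WT libraries. The 12 trophoblast markers summed to 68.7 to 74.7 CPM in dKO and 316 to 449 CPM in WT libraries. Of 10 tested, 9 were lower and 0 higher, where 17.9% of all tested genes were lower. Elf5 reached the low-count filter in 0 and Gata3 in 2 dKO libraries, each in 3 WT libraries. Krt8, Hand1, Krt18 and Krt7 had the smallest p, Elf5 also fell (log2 fold change -4.96), and Tpbpa was at 0. The part of these cell types in the member differences was not tested.

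For each tested member, the genes with the nearest profile were sought among tested genes, leaving out Gm numbers, Rik clones and bare identifiers. Nearest means the smallest root mean square difference in centred log2 CPM over the 6 libraries. For Pdgfra they were Trim5 (0.0934) and the amino acid transporter gene Slc43a1 (0.11), and for Cubn the vomeronasal receptor gene Vmn2r114 (0.147) is given. For Gata4 they were the heparanase gene Hpse (0.149) and the adhesion gene L1cam (0.176), for Foxq1 Tmtc2 (0.128) and the phosphodiesterase gene Pde10a (0.163), and for Sox7 Trpc5os (0.439) and Adad1 (0.461). For Gata6 they were Slc12a5 (0.0727) and Hfe (0.0967), and for Dab2 Zfas1 (0.0677) and Uros (0.0707). None of these genes was another of the 9. With 6 libraries, many genes can share such a profile.

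**Figure D5:**
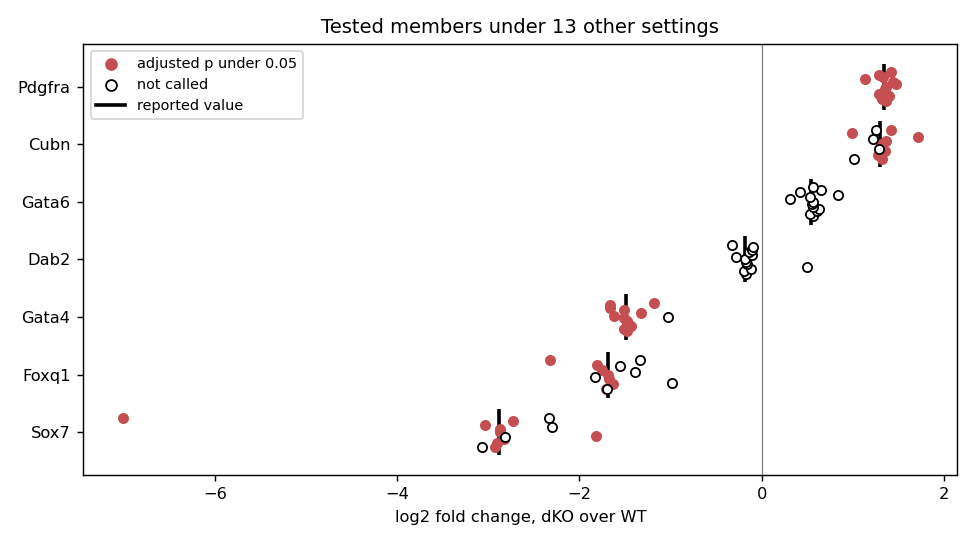
Log2 fold change, dKO over WT, of each tested member as reported (black line) and under 13 other settings (points, filled where the adjusted p was under 0.05). Pdgfra is filled throughout and Gata6 and Dab2 are open throughout; Cubn, Gata4, Foxq1 and Sox7 hold both kinds, and Dab2 crosses 0 in 1 setting.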

How the data were processed

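RNA was measured in 3 dKO and 3 WT libraries made with an Illumina TruSeq kit from total RNA, per the labels' protocols. Tools listed without roles in the submitters' processing notes are RSEM, HISAT2 2.1.0, DESeq 1.26.0 and FastQC, with the build GRCm39. Not given in the sources used here are strand handling and the annotation release, so counts of overlapping and antisense genes are uncertain. A single file that the authors deposited holds expected counts per gene and library, TPM per library and as their mean per genotype, a gene length, and their own fold (ratio), log2 fold change, p-value and adjusted p-value, per the file headers. Of the expected counts above 0, 24.6% were not whole.

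Expected counts were rounded. Genes were kept with filterByExpr (15714 genes), scaled by TMM and tested with edgeR 4.0.16 in R 4.3.3 (robust quasi-likelihood, genotype only, Benjamini-Hochberg over all tested genes, calls under 0.05). Each SE is the absolute log2 fold change over the square root of the F statistic. Alternatives used DESeq2 1.42.0, limma 3.58.1 on log2(TPM + 0.1) (chosen after seeing the data), other scalings, no filter, a replicate block and each library left out. The edgeR step was tested on simulated data. Chromosomes and gene order came from GENCODE M21 (GRCm38) by Ensembl identifier, which matched 51884 of 57180 genes. Its gene starts were used only to order genes and are not given here. Promoter windows came from RefSeq. Other steps ran in Python 3.11.15 with SciPy 1.17.1, NumPy 2.4.6, pandas 2.3.3 and, for plots, matplotlib 3.10.9.

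The members and lists were chosen with earlier results of these data known. Named genes are the members, their relatives, up to 4 genes of smallest p per list, list genes that are ligands, partners or defining markers, 2 genes of nearest profile per member (for Cubn, 1 of them is not reported here), and 5 tested neighbours on each side of Gata4 and Sox7. Others, such as Snai1, Fgfr2 and Col1a1, were named after their values were seen.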

Additional observations from a re-analysis of the deposited data

How the results depend on the processing

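Pdgfra was called higher in all 13 other settings, and Gata6 and Dab2 were called in none of them. Calls held for Gata4 in 12 of 13 settings, for Cubn and Sox7 in 9 and for Foxq1 in 7. With limma on log2(TPM + 0.1), 2459 genes were called, among them 1 member higher (Pdgfra) and 1 lower (Sox7). There the log2 fold change was -1.02 for Gata4, -0.98 for Foxq1 and 1.02 for Cubn, none called, and Dab2 turned to 0.50. With DESeq2, Foxq1 (-1.70) was not called. Relative to the chromosome 14 median, Gata4 was at -0.56 and Sox7 at -1.95.

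Leaving out each library in turn gave 3588 to 6833 called genes (3588 without dKO replicate 1), 1 to 2 members higher and 1 to 3 lower. Log2 fold changes ran from -1.67 to -1.18 for Gata4, -2.33 to -1.34 for Foxq1, 0.99 to 1.71 for Cubn, 1.13 to 1.47 for Pdgfra, 0.31 to 0.84 for Gata6 and -0.33 to -0.10 for Dab2. For Sox7 they ran from -7.01 to -2.30; the first is without dKO replicate 3, when no dKO count remained, so it depends on the prior count and is no bound. The cause of the lost calls was not tested.

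Deviations of same-numbered libraries correlated at -0.0763, 0.273 and 0.329 over tested genes. Differently numbered libraries were not compared, so whether the replicate numbers pair the libraries was not settled. A replicate block gave 6794 called genes, against 5392 without it. With a replicate block, 2 members were called higher and 3 lower, with log2 fold changes of 1.37 for Pdgfra and Cubn, -1.51 for Gata4, -3.03 for Sox7 and -1.75 for Foxq1. Without a low-count filter, Sox17 (-0.45, edgeR adjusted p = 0.686) and Foxa2 (-1.11, 0.658) were not called. Depth limits Foxa2, Sox17, Sox7, Foxq1 and Gata6, each under 30 counts in every library. Counts were also low for Gata4 in dKO libraries (7 to 18), and in WT libraries for Pdgfra (14 to 31) and Cubn (11 to 42).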
